A study of Mus musculus with 6 samples.

Results

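Broad H3K4me3 domains are promoter regions in which the mark runs on for several kilobases. Here they were chosen by width in germinal center (GC) B cells of the mouse. Overlapping H3K4me3 peaks of 3 libraries were merged, and a merged region was kept if each library had at least 1 single peak of 5000 bp or more in it and if it covered the transcription start site (TSS) of a protein-coding gene. This left 228 domains of 64451 merged regions. They carried the TSSs of 257 of 21864 protein-coding genes. The widths, and whatever else comes from the H3K4me3 peaks of these regions, chose the domains and are given as a description with no test.

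The libraries came from a Mint-ChIP experiment, a barcoded chromatin immunoprecipitation for small cell numbers, with 3 libraries for H3K4me3 and 3 for H3K4me1. Per the labels each of the 6 was made from 50000 sorted GC centrocytes, taken from the spleen of WT mice on day 8 after they had received sheep red blood cells as antigen. Centrocytes are GC B cells of the light zone, and the study's methods name GC B cells without that restriction. Elsewhere in the study WT stands for mice that carry a Cre driven by the immunoglobulin gamma 1 locus, and neither this allele nor age and sex are given for these libraries. A protocol line of the labels names an H3K27ac antibody, while the titles and antibody labels name H3K4me3 (ab8580) and H3K4me1 (ab8895), and the titles were followed. Nothing in the labels says whether the 3 libraries of a mark came from separate mice, so the spread between them may be technical.

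H3K4me3 is placed at active promoters by SET1 and MLL enzymes and usually forms a short block around the TSS. In many cell types a small set of genes carries a far wider block, and this set tends to hold the genes that define the cell. H3K4me1 is the mark of enhancers and of promoter flanks, and it is commonly lower where H3K4me3 is highest.

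The libraries were first checked for their cell type. All 11 GC B cell markers (among them Bcl6, Pax5 and Cd79a) had an H3K4me3 peak over a TSS in 3 of 3 libraries, and 6 of the 11 lay in a broad domain. Of 7 T cell markers 1, Lck, had such a peak in 3 libraries and the other 6 had it in none. No myeloid marker of 6 and no erythroid marker of 4 had one in 3 libraries. In none of the libraries had 4 of the 6 myeloid and all 4 erythroid markers one. The TSS of the myeloid marker Cd14 lay in a merged region whose widest peaks measured 1173, 1963 and 1456 bp in replicates 1, 2 and 3. The 4 plasma cell markers all had one, and none of them lay in a broad domain. H3K4me3 replicate 1 held 46707 peaks over 60.2 Mb, replicate 2 held 41936 over 49.4 Mb and replicate 3 held 42862 over 50.7 Mb. The H3K4me1 lists were shorter, with 24136, 13923 and 11922 peaks over 7.91, 4.35 and 3.53 Mb. Replicate 1 was therefore the most extensive list of either mark, and the H3K4me1 shares over all domains given below are highest in it.

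Sequence is shown first for 4 domain promoters, 250 bases before to 50 after the TSS in GRCm38.p6, because they set CpG-poor promoters under wide domains beside a CpG-richer one. Il21r (chr7:125603244-125603543, plus strand), Blk (chr14:63416988-63417287, minus strand) and Zbtb20 (chr16:43508013-43508312, plus strand) are poor in CpG. Mef2c (chr13:83524285-83524584, plus strand) holds more of it. Capitals mark CpG dinucleotides, of which there are 8, 4, 3 and 15 in the order printed, and each sequence reads 5′ to 3′ on the strand of its gene.
Il21r: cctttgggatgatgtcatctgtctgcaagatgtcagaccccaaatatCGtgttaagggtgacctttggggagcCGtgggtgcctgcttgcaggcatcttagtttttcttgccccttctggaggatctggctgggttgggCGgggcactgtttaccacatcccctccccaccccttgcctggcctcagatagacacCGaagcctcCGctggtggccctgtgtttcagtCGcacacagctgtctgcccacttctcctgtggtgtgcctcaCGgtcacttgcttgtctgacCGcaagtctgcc
Blk: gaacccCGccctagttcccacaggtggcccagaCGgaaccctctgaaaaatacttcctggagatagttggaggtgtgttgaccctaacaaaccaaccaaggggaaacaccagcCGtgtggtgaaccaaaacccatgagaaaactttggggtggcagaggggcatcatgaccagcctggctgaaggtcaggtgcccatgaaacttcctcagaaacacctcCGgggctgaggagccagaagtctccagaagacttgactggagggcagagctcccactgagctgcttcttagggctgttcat
Zbtb20: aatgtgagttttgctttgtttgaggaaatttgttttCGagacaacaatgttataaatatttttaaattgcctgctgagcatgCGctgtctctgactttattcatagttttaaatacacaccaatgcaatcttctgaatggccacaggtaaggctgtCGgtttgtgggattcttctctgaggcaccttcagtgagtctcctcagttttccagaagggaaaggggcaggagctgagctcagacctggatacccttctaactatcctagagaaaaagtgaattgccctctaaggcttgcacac
Mef2c: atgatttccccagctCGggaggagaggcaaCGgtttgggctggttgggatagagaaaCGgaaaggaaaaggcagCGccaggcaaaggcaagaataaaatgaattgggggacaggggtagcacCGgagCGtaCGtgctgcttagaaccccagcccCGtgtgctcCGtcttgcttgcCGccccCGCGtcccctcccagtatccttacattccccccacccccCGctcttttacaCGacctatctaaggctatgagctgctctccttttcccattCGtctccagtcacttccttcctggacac
In the 1 kb around these TSSs the observed over expected CpG ratio was 0.227 for Il21r, 0.113 for Blk, 0.234 for Zbtb20 and 0.704 for Mef2c. The widest domains thus lay over promoters of both kinds.

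The domain over Il21r, the receptor for the interleukin that follicular helper T cells give to GC B cells, was the widest by the narrowest of its 3 libraries. Its widest peak measured 16211, 12951 and 12924 bp in replicates 1, 2 and 3. The merged region (chr7:125592525-125609187) ran from upstream of the gene across its first TSS into the gene body. Il4ra, which encodes the receptor for interleukin 4 and is the neighbouring gene, had a domain of its own (chr7:125551163-125557971) of 6044, 6219 and 6150 bp. Ccdc50, an adaptor protein gene, came second with 14830, 12750 and 14296 bp in 1 unbroken peak per library (chr16:27382070-27397103).

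Transcription factors of the B lineage stood out among the wide domains. Pax5, which commits and keeps cells in the B lineage, measured 12468, 17956 and 14894 bp (chr4:44698736-44716975). Ikzf1, which encodes the zinc finger factor Ikaros, measured 11013, 10729 and 11269 bp (chr11:11686404-11697700), and the 3 libraries differed little in width. The covered TSS of Ikzf1 lay outside the part that the 3 widest peaks share. Bcl11a, another zinc finger factor of early lymphocytes, shared its domain with A830031A19Rik on the opposite strand at 12166, 10046 and 14189 bp. Zbtb20 measured 10859, 9970 and 11058 bp, at a TSS 600611 bp downstream of the gene's most upstream one. Irf8 followed at 14306, 9023 and 13000 bp, and Bcl6, the repressor that GC B cells depend on, at 9477, 9005 and 9541 bp. Bcl6 shared its domain with the gene model Gm37419 on the opposite strand. Mef2c was the single gene with 2 separate domains. They lay 20501 bp and 69573 bp downstream of its most upstream TSS and measured 9529, 9862 and 10108 bp and 12062, 10026 and 6190 bp.

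Genes of B cell receptor signalling also had domains. Blk, a Src family kinase, measured 10162, 10379 and 10475 bp (chr14:63409433-63420090), again nearly the same in each library. Lyn, the related kinase, measured 8176, 8177 and 8589 bp. Cd37, a tetraspanin, measured 7408, 8245 and 7499 bp in a domain shared with Slc6a16 on the opposite strand. Cd79b, a signalling chain of the receptor, measured 11357, 11784 and 7406 bp, and the region was called as 3 peaks in replicate 3. The region (chr11:106303480-106316956) covered the whole of the short gene.

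Genes of T cell help and of positioning were present as well. Cd83, a light zone surface protein, measured 6873, 8091 and 9340 bp. Rhoh, an atypical small GTPase, measured 10908, 15173 and 16592 bp, and Gpr183, the oxysterol receptor that guides B cells within the follicle, 11883, 11120 and 7701 bp. Sema4d, a semaphorin, had the single widest peak, 27260 bp in replicate 1 against 11282 and 11184 bp in the others. Its covered TSS lay outside the part that the 3 widest peaks share. Fas and Swap70, at 11017, 9084 and 8779 bp and at 14586, 9030 and 9231 bp, belong to 7 domains in which the 3 widest peaks share no base.

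Among genes of survival and the cell cycle, Btg1, an antiproliferative factor, measured 8454, 7220 and 8601 bp. Tnfaip3, the NF-kappaB brake A20, measured 6905, 6846 and 6845 bp. E2f2, a cell cycle transcription factor, passed with 5903, 10722 and 5939 bp, and its covered TSS lay outside the part that the 3 widest peaks share. Myc, at 6275, 6075 and 5120 bp, lay close to the limit. Outside these themes, the 10 widest domains also held Smim14, which encodes a small membrane protein, with the gene model Gm43552 (11779, 13306 and 12904 bp), and Mapre2, a microtubule end binding protein (11195, 11054 and 10966 bp).

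**Figure D1:**
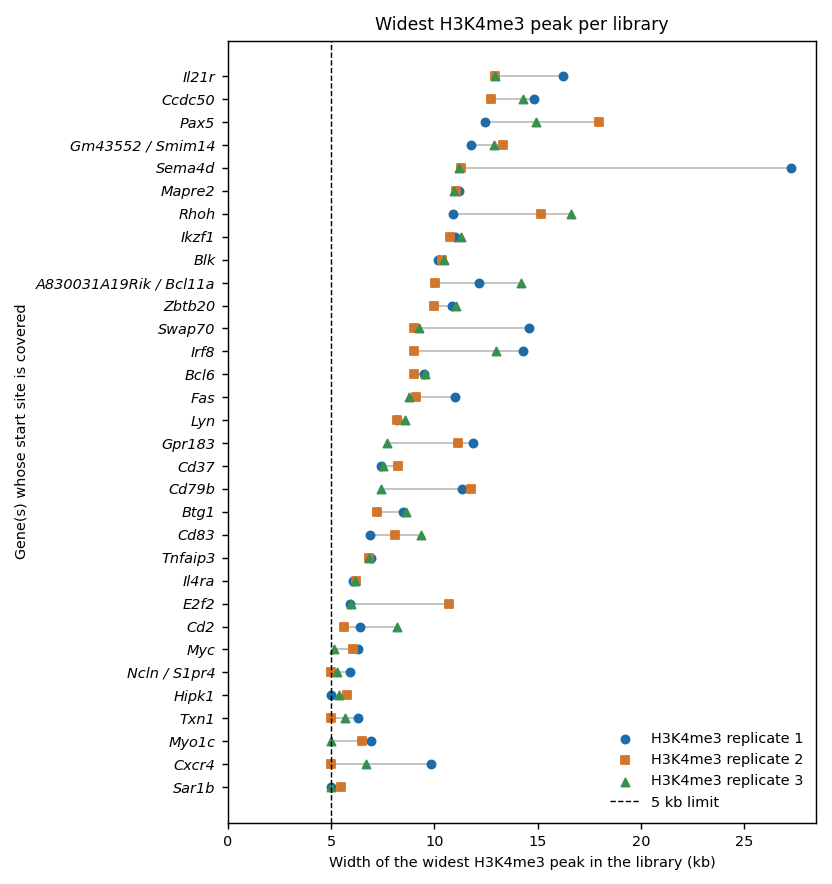
Width of the widest H3K4me3 peak in kb (horizontal axis) for the domains named by the fixed rule and for 3 regions just outside it, 1 symbol per library, with a grey line from the lowest to the highest library and a dashed line at 5 kb. Ikzf1, Blk, Tnfaip3 and Il4ra have nearly equal widths in the 3 libraries, whereas Sema4d spans 11184 to 27260 bp.

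Near the limit a few bases decided membership. Just inside were Ncln and S1pr4 in 1 domain (5888, 5009 and 5281 bp), Hipk1 (5007, 5759 and 5373 bp) and Txn1 (6301, 5006 and 5649 bp). Just outside were Myo1c (6941, 6508 and 4996 bp), Cxcr4 (9846, 4990 and 6692 bp) and Sar1b (4983, 5461 and 4976 bp). Cxcr4, the receptor that holds centroblasts in the dark zone, missed in 1 library by 10 bp. A further 169 promoter regions had a peak of 5000 bp or more in 2 of 3 libraries and 285 in 1 of 3. Another 151 regions passed in each library but covered no protein-coding TSS.

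Over all 228 domains the median widest peak was 7287, 6759 and 6658 bp in replicates 1, 2 and 3 (mean 6901 ± 338 bp, SD, n = 3). In the 9352 other H3K4me3 promoter regions, those over a protein-coding TSS with a peak in each library, the median was 2019, 1738 and 1783 bp. The widest of the 3 values was a median 1.23 times the narrowest and at most 3.23 times, and the ratio stayed under 1.5 in 165 domains. The merged regions measured 8546 bp in the median and 5436 to 27260 bp in all. In 11 domains the peak reached 10000 bp in each library. The deposited fold enrichment over background differed little between the sets. In replicates 1, 2 and 3 its median was 6.88, 6.24 and 6.18 in domains and 6.61, 5.94 and 5.95 in the others. How it moved with width within a set was not tested.

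Lists of genes were then read against the domains, and their background was 1.18% of all protein-coding genes and 2.46% of the 10430 genes with an H3K4me3 promoter region in 3 libraries. The lists were written with earlier results of these data known, so their counts are descriptions. Of 32 listed transcription factors of B and GC B cells, 18 lay in a domain (56.2%), and besides those above these were Ebf1, Spib, Foxo1, Ikzf3, Pou2af1, Pou2f1, Pou2f2, Mef2b, Foxp1, Elf1 and Rel. Of 30 genes of B cell receptor signalling 10 did (33.3%), with Cd79a, Syk, Blnk, Pik3cd, Rasgrp3 and Ms4a1 beside the 4 above. Of 30 genes of T cell help, antigen presentation and cytokine receptors 9 did (30%), among them the class II genes H2-Eb1, H2-DMa and H2-DMb2 and their activator Ciita. Of 30 genes of positioning, migration and the cytoskeleton 9 did (30%), among them the follicle homing receptor Cxcr5 and the confinement genes Gna13 and Arhgef1. Survival and cell cycle genes were fewer, 4 of 26 (15.4%). Taking each gene of these 5 lists once, 50 of 148 lay in a domain (33.8%). Genes that shared a domain were each counted. Cd79a and Arhgef1 lay in the same domain, H2-DMa shared its domain with Brd2, and Ikzf3 shared its domain with Zpbp2.

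The other lists held few or no domain genes, and at 2.46% of marked genes fewer than 1 gene of each would lie in a domain, so counts of 0 are near the background. Of 30 ribosomal protein and proteasome genes 28 had an H3K4me3 promoter region in 3 libraries and 0 lay in a domain. Of 29 histone and chromatin regulators 24 had the mark and 0 lay in a domain, with Kmt2a reaching 11124 bp in replicate 1 but 5258 and 3926 bp in the others. The list was partial, and Phf19, a Polycomb partner described below, had a domain and was not on it. Of 15 plasma cell genes 13 had the mark and 0 lay in a domain, among them Prdm1, the repressor that drives plasma cell fate, at 2860, 2665 and 2860 bp. Some B cell genes fell short too. Cd74 measured 4181, 3626 and 3507 bp, and Irf4 5245, 4283 and 4464 bp. The myeloid and erythroid list (20 genes) and the list of other tissues (25 genes) had 1 and 2 genes with an H3K4me3 promoter region in 3 libraries and 0 in a domain. In the T cell list of 20 genes Cd2, an adhesion receptor, was the 1 member of a domain, at 6413, 5604 and 8179 bp.

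**Figure D2:**
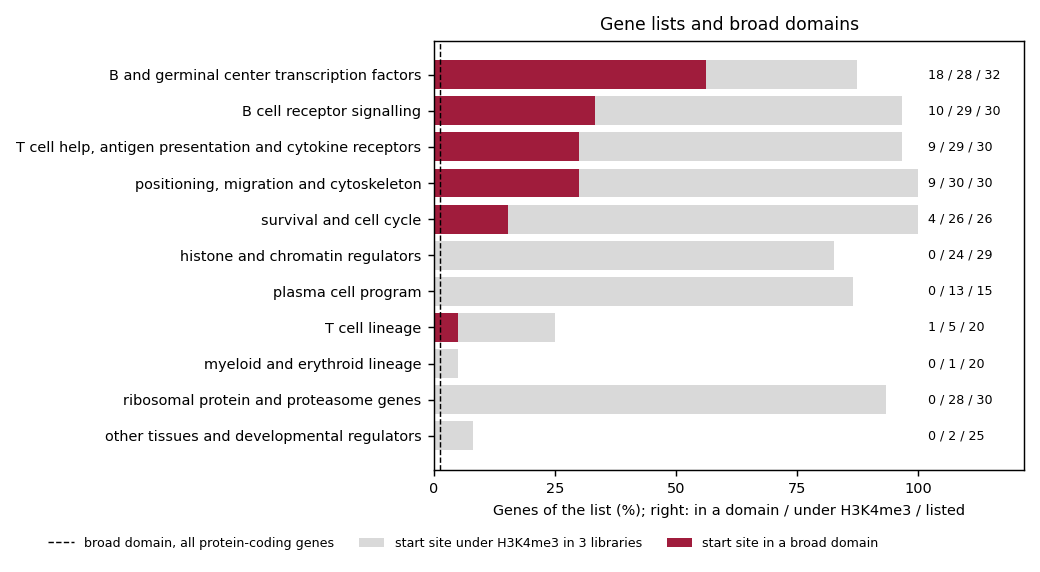
Percentage of the genes of 11 lists (horizontal axis) whose TSS lay in a merged H3K4me3 region with a peak in each of 3 libraries (grey) and in a broad domain (red). Counts in a domain, in such a region and listed are at the right, and a dashed line marks 1.18% of all protein-coding genes. Ribosomal and proteasome genes are mostly grey with 0 in a domain, and the list of B and GC B cell transcription factors reaches 56.2%.

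Fragmentation differed between libraries. Replicate 1 had a single peak in 178 of 228 domains (78.1%), replicate 2 in 158 (69.3%) and replicate 3 in 145 (63.6%). All 3 libraries had a single peak in 114 domains (50%), and the domain was split in 1 library in 43, in 2 libraries in 53 and in 3 libraries in 18. Other promoter regions were single in 94.8%, 88.9% and 89.5%. Replicate 1, which covered the most length, was the least split. Most split domains were in 2 pieces, 42, 40 and 59 of them in replicates 1, 2 and 3, and 4 or 5 pieces were found in 1, 6 and 7.

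The breaks were short. Between pieces of 1 domain there were 59, 108 and 117 gaps with medians of 868, 1006 and 938 bp and a largest gap of 2860 bp. Across all peaks of a library the smallest gap was 697, 721 and 693 bp, so shorter breaks are not visible in these lists and the counts of pieces depend on how the authors' caller joined peaks. H3K4me1 peaks, averaged over the 3 H3K4me1 libraries, lay over 3.14% to 3.48% of the gap bases and over 8.86% to 9.15% of the H3K4me3 peak bases of the domains. The gaps thus held less H3K4me1 than the H3K4me3 peaks of all domains together. Pieces of split domains were not measured alone. The most split domain was that of Swap70, with 2, 4 and 5 peaks. Kmo, an enzyme of tryptophan breakdown, had 4, 2 and 4, and the domain shared by the divergent genes Cep57l1 and Sesn1 had 2, 3 and 5. Blk, Ccdc50, Ikzf1, Mapre2 and Zbtb20 each had 1 peak in each library.

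Of the 228 domains 200 covered the TSSs of 1 protein-coding gene, 26 of 2 genes and 2 of 3 or more. TSSs on both strands were present in 20 domains (8.77%), in 18 of them head to head, against 11.1% and 9.71% of other regions. Neighbouring promoters sharing 1 block were not more frequent among the domains. A TSS of another annotated gene type lay in 69 domains (30.3%) and in 14.6% of the others, which are also shorter. Antisense genes were the most frequent of these types, in 28 domains.

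In 201 domains a peak of 5000 bp or more covered a TSS in each library. In 30 domains with TSSs on 1 strand no TSS lay in a part shared by the 3 widest peaks. Reach to either side was measured in 178 domains with all TSSs on 1 strand and at least 1 within that part. The most upstream such TSS was taken. Reach was that of the widest peak in each library, so further pieces of a split domain were left out. The median reach was 1918, 1808 and 1868 bp upstream (mean 1865 ± 55.1 bp, SD, n = 3) and 4930.0, 4776 and 4632 bp into the gene (4779.7 ± 149 bp). Into the gene the domains ran farther in 121 in each library, upstream in 35, and 22 were mixed. The share that ran farther into the gene was 74.7%, 75.8% and 74.2%, beside 78.1%, 77.2% and 77.7% of 6251 other regions, so the lean towards the gene was shared with ordinary promoters. Of the length, a median of 73.3% ± 0.515 lay downstream in domains and 64.3% ± 0.214 in the others. Taking the most downstream covered TSS in place of the most upstream one, the gap between the median reaches of the domains was 1.78 kb and not 2.91 kb, in the same direction. This alternative was not computed for the other regions, so how the difference in downstream share depends on the choice of TSS was not tested.

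**Figure D3:**
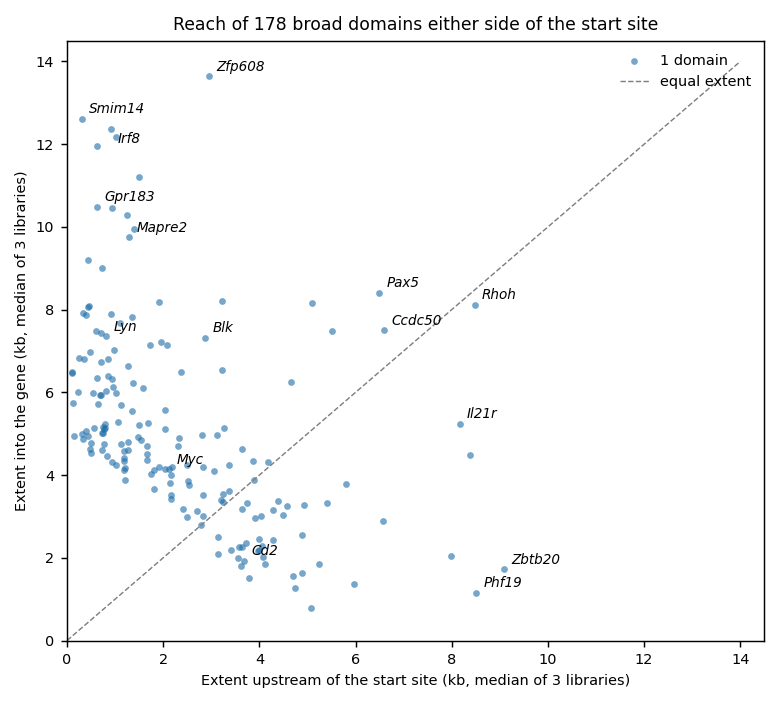
Reach of the widest peak in 178 domains upstream of the TSS (horizontal axis, kb) against reach into the gene (vertical axis, kb), each point the median of 3 libraries for 1 domain, with a dashed line of equal reach. Most points lie above the line at under 4 kb upstream, and Zbtb20, Phf19, Il21r and Rhoh lie to the right of it.

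By the median of 3 libraries Zfp608, a zinc finger gene, reached farthest into the gene at 13691, 6439 and 13645 bp, with 2910, 2965 and 2955 bp upstream. Smim14 reached 10989, 12990 and 12618 bp into the gene and 789, 315 and 285 bp upstream. Irf8, a factor of GC B cells and of myeloid cells, reached 12776, 8116 and 12368 bp inwards. In these 3 the upstream border of the widest peak moved by less than 1 kb between libraries while its inner border moved by kilobases. The domains were split, with 2, 2 and 1 peaks for Zfp608, 2, 1 and 1 for Smim14 and 2, 2 and 2 for Irf8. A moved inner border can therefore be a break between pieces and not the end of the domain. At the other end, Zbtb20 reached 9088, 8310 and 9334 bp upstream and 1770, 1659 and 1723 bp into the transcript, and Phf19, a Polycomb partner protein, 8755, 8510 and 7380 bp upstream. Zbtb20's upstream side lies within its own gene, because the TSS used is an internal one. The widest peak of Rhoh depended on the library, with 345 bp upstream in replicate 1 and 9182 and 8475 bp in the others. This domain was called as 2, 3 and 1 peaks, so the 345 bp is the reach of 1 piece and not of the domain.

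The inner border of the widest peak fell in the first intron in 61.2%, 62.9% and 64.6% of domains and in 70.8%, 71.7% and 72% of other regions. It lay past the end of the gene in 13, 12 and 11 domains, and in 11 of them in each library, so the whole gene downstream of the TSS was covered. In other regions this occurred in 0.912% to 1.2%. Domain genes were longer, with a median of 30 kb against 22.6 kb, and so were their first introns, 7.02 kb against 3.13 kb. The TSS used lay over 1 kb downstream of the gene's first TSS in 32 domains (18%) and in 8.24% of other regions.

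H3K4me1, which the choice of domains did not use, covered more of the bases inside the domains than of those just outside. Peaks of this mark lay within the domain in 3 of 3 H3K4me1 libraries in 159 of 228 domains (69.7%) and in 651 of 9352 other regions (6.96%), where the share over all 9580 regions was 8.46%. Domains are longer and so have more room for a peak, and the share of bases was therefore compared. H3K4me1 covered 12.5%, 6.8% and 6.1% of the domain bases in replicates 1, 2 and 3 and 6.03%, 3.11% and 2.66% of the bases of other regions, a ratio of 2.18 ± 0.108 (SD, n = 3). The difference was 4.54 ± 1.69 percentage points, in the same direction in 3 of 3 libraries (two-sided exact sign-flip test over libraries, p = 0.25). That is the smallest p that 3 libraries allow, so none of the tests reported here can pass 0.05. With H3K4me1 peaks kept at a −log10 q-value minimum of 5 the difference was 1.61 points, again in 3 of 3 libraries. This comparison was added after the data had been seen.

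The share of domains with H3K4me1 inside rose with width, and wider domains have more room for a peak. Grouped by the narrowest of the 3 widest peaks, H3K4me1 was inside in 3 of 3 libraries in 54.5% of 101 domains of 5 to 6 kb, 76.7% of 90 of 6 to 8 kb, 92.3% of 26 of 8 to 10 kb and 100% of 11 above that. The covered share rose less, from 10.6%, 5.64% and 5.13% in the narrowest class to 15.8%, 8.04% and 6.53% in the widest. It did not rise at each step. In replicate 2 it was 7.43% at 6 to 8 kb and 7.36% at 8 to 10 kb, and in replicate 3 it was highest at 8 to 10 kb, at 7.67%. In 8 domains no H3K4me1 peak lay inside in any library, and these were Myc, Foxo1, Nfkbie, Sept6, Sh2b2, Sin3a, Tgif1 and a domain shared by Bcl2a1b and Gm29094. Il21r held 8, 5 and 5 peaks in the 3 libraries, Pax5 6, 3 and 5, and Blk 6, 4 and 1.

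At the borders themselves H3K4me1 stepped down. In the 1 kb just inside the 2 edges of the merged region, H3K4me1 covered 11.2%, 5.5% and 4.48% of bases, and in the 1 kb just outside 1.54%, 0.551% and 0.721%. The difference was 6.14 ± 3.15 points, in the same direction in 3 of 3 libraries (two-sided exact sign-flip test, p = 0.25), and this contrast too was added after seeing the data. Edges of a merged region are the outermost H3K4me3 bases of any library, and the bases adjoining them are free of H3K4me3 by construction. The contrast of inside against outside was not computed for other regions. Around the TSSs of 6251 of them H3K4me1 also fell with distance. It covered 6.6%, 3.24% and 2.8% of bases from 500 to 1000 bp downstream and 1.28%, 0.701% and 0.564% from 3000 to 3500 bp.

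**Figure D4:**
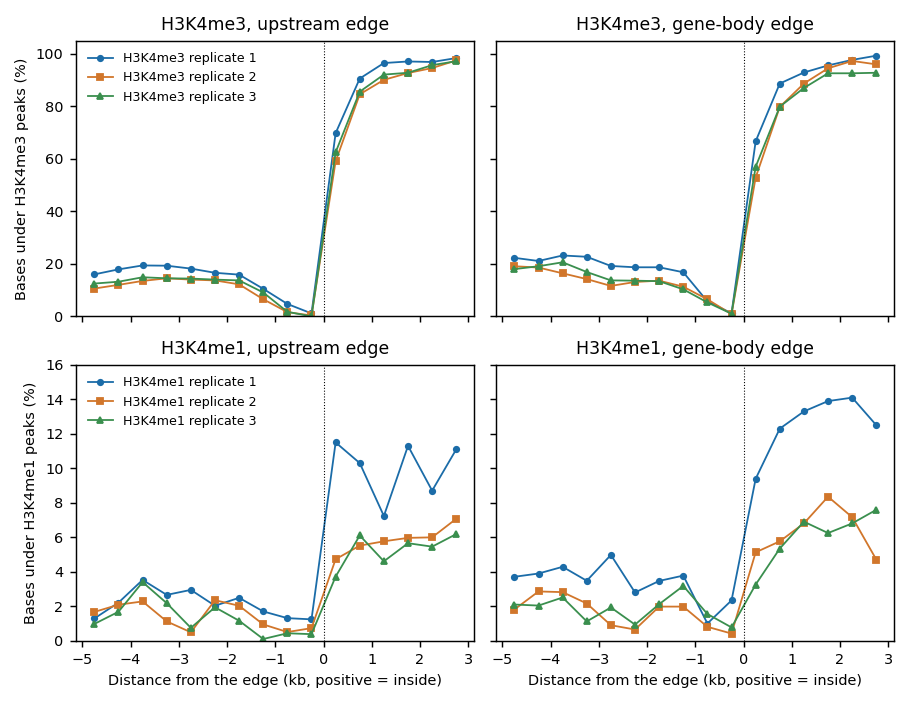
Percentage of bases under H3K4me3 peaks (top) and H3K4me1 peaks (bottom) by distance from the upstream edge (left) and the gene-body edge (right) of the domains in kb, positive values inside, 1 line per library. H3K4me1 falls at both edges in each library and lies at 0.37% to 2.33% in the 500 bp outside.

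Edges were then set against the TSS, with windows of 1 kb to both sides of each edge and 1 kb around each TSS. H3K4me1 covered 6.4%, 3.03% and 2.6% of the edge windows and 6.32%, 3.57% and 3.24% of the TSS windows. The difference of -0.371 ± 0.392 points was smaller than its spread and negative in 2 of 3 libraries (two-sided exact sign-flip test, p = 0.5). Its direction depended on which border was used. With the edges of the widest peak of a single H3K4me3 library the edge windows held more H3K4me1, by 0.715, 1.01 and 0.891 points for replicates 1, 2 and 3, and with 1 kb inside the edges alone by 2.7 points. With 1 kb outside the edges alone it was -3.44 points. In 127 domains with every TSS over 1500 bp from both edges it was -0.427 ± 0.0372 points. Both were negative in 3 of 3 libraries. The contrasts inside or outside the edges alone and that of the 127 domains were added after the data had been seen.

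Next to the domains, an H3K4me1 peak lay within 1 kb outside an edge in 17.5%, 7.46% and 7.89% of domains and in 7.41%, 3.8% and 3.13% of other regions. The difference was 6.19 ± 3.46 points, higher in 3 of 3 libraries (two-sided exact sign-flip test, p = 0.25), and 1.98 points with H3K4me1 peaks kept at a −log10 q-value minimum of 5. In 3 of 3 libraries such a peak was seen beside 0 of 228 domains and 7 of 9352 other regions, 0.0731% of all regions together, and at so low a share the 0 says nothing about the domains. The lists of replicates 2 and 3 are shorter, and the part of list length in this was not tested.

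Gene-body edges were then set against upstream edges. Counting peaks within 1 kb to either side, H3K4me1 was found at the gene-body edge in 40.9%, 19.2% and 20.7% of 208 domains with TSSs on 1 strand and at the upstream edge in 37%, 22.1% and 20.2%. The difference was 0.481 ± 3.37 points (two-sided exact sign-flip test, p = 0.75), which is smaller than its spread. It moved with the settings, to -1.2 points without H3K4me1 replicate 1 and to 5.29 points, higher in 3 of 3 libraries, with the edges of the widest peak of H3K4me3 replicate 3. With windows of 2 kb it was 3.53 points and without H3K4me3 replicate 3 it was 3.82 points, both higher in 3 of 3 libraries. The domain with the most H3K4me1 peaks around its edges was that of Ppp3cc, a catalytic subunit of calcineurin, with 1, 2 and 3. Lrrfip1, an RNA-binding protein gene, had 3, 0 and 2, and Gimap9, a lymphocyte GTPase gene, 1, 2 and 2.

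Seen from the TSS, H3K4me1 was higher downstream than at the start itself. In the first 500 bp downstream of the TSS it covered 5.02%, 3.67% and 2.67% of bases in the 178 domains, and in the bin from 3500 to 4000 bp downstream 13.4%, 7.83% and 7.87%. From 1 to 4 kb downstream it covered 12.2%, 6.72% and 6.26%, against 6.75%, 3.6% and 2.82% at the same distance upstream. The difference was 4.01 ± 1.27 points and positive in 3 of 3 libraries (two-sided exact sign-flip test, p = 0.25). This contrast and the one within the domains below were added after the data had been seen. H3K4me3 itself covered 85.6% to 88.7% of the downstream and 43.8% to 47.7% of the upstream window. Within the domains the sides were closer, at 12%, 6.92% and 6.04% of domain bases downstream of the TSS and 11.3%, 6.13% and 5.33% upstream, a difference of 0.736 ± 0.0424 points (two-sided exact sign-flip test, p = 0.25). Other promoter regions held 2.24%, 1.16% and 0.999% in the downstream window, where H3K4me3 covered 14.8% to 18.4% of bases.

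**Figure D5:**
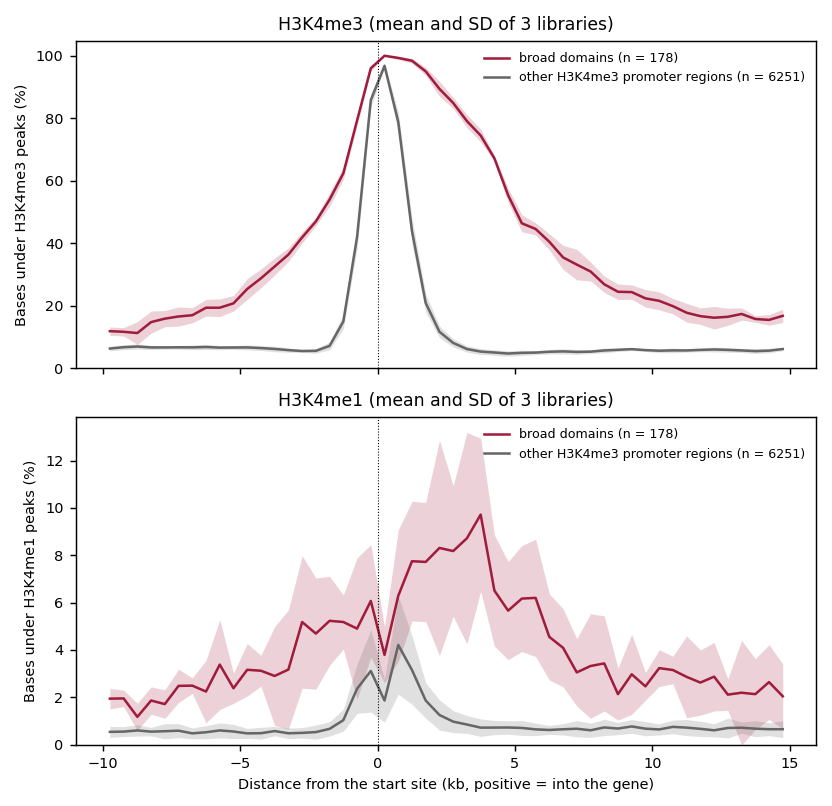
Percentage of bases under H3K4me3 peaks (top) and H3K4me1 peaks (bottom) by distance from the TSS in kb, positive into the gene, for 178 broad domains (red) and 6251 other promoter regions (grey), with the mean and SD of 3 libraries as line and band. The mean H3K4me1 of the domains dips in the first bin after the TSS and is highest between 1 and 4 kb downstream, and in other regions it forms a low pair of shoulders next to the TSS.

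The domain promoters were less rich in CpG than other H3K4me3 promoters. The median observed over expected CpG ratio in 1 kb around the TSS was 0.631 in 178 domains and 0.711 in 6251 other regions, and the GC content 56.5% and 57.6%. A CpG-rich window (a ratio of at least 0.6 with at least 50% GC) was present in 51.1% of domains and 69.7% of the others. Over the part shared by the 3 widest peaks the ratio was 0.342 against 0.646, and this part is longer in domains. With 2 kb around the TSS the difference in the ratio was -0.0543 in place of -0.0796.

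Short motifs were searched on both strands in the 300 bases around the TSS. The ETS motif CCGGAAG was in 8.43% of 178 domain promoters, 20.4% of other H3K4me3 promoters and 11.1% of 21851 promoters of all protein-coding genes. The SP/KLF motif GGGCGG was in 51.7%, 61.3% and 44.9%. TATAAA was in 12.4%, 7.29% and 12.5%. The octamer ATGCAAAT was in 3.37%, which is 6 domain promoters, 1.84% and 1.57%, and GAGGAAG, letters of the PU.1 and SPIB sites, in 18.5%, 13% and 13.3%. CAGCTG, an E-box, was in 18%, 14% and 15.6%. The domain promoters were thus nearer to all promoters than to the other marked ones in the ETS and TATA letters. GGGCGG and CCGGAAG contain CpG, which is scarcer in these windows, and each match describes letters and not a bound site.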

How the data were processed

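Mint-ChIP peak lists of 3 H3K4me3 and 3 H3K4me1 libraries were used as deposited. The authors made 1 list per library and did not pool reads. H3K4me3 lists have the broad layout and H3K4me1 lists the narrow one, and column 7 holds the fold enrichment over background as a linear ratio, with deposited −log10 p-values and −log10 q-values beside it. The submitters' processing notes name BWA, Picard, HOMER, Genrich and the build mm10, while which program called these peaks, with what settings and control, is not given in the sources used here. Read depth is unknown, so list length was taken as its guide, and no read counts or intervals are given.

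Peaks sharing at least 1 bp were merged over the 3 H3K4me3 libraries (Python 3.11.15). TSSs were those of protein-coding transcripts in the GENCODE M21 basic annotation of GRCm38, and sequences came from the RefSeq GRCm38.p6 genome. H3K4me1 contrasts were tested with two-sided exact sign-flip tests over 3 libraries, and regions were not treated as replicates. Functions were tested on simulated peaks. Alternatives covered the width limit, a −log10 q-value of at least 5, merging distance, TSS and edge definitions, and leaving out each library. Members, gene lists and tests were chosen with earlier results of these data known. Named genes were the 10 widest domains, up to 4 per list, 3 to each side of the limit, and the extremes of reach, splitting and H3K4me1 at the edges, 3 of each. Genes of lists below their limit, those with 2 domains or no H3K4me1, and the Il4ra neighbour pair were added after their values were seen. Some items of the lists are not reported here.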

Additional observations from a re-analysis of the deposited data

How the results depend on the processing

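The number of domains followed the width limit, with 438 at 4000 bp, 127 at 6000 bp and 37 at 8000 bp. It was between 185 and 244 under the other settings that kept all libraries, and between 240 and 310 without 1 of the H3K4me3 libraries. The mean of the median widths was 6505 bp in domains with exactly 1 peak per library, and 6573 to 6775 bp without 1 H3K4me3 library. Reach into the gene exceeded reach upstream by 2.78 to 3.09 kb without 1 H3K4me3 library and by 1.78 kb from the most downstream TSS. H3K4me1 at edges against TSSs reversed with the edges of the widest peak of H3K4me3 replicates 1, 2 and 3 (0.715, 1.01 and 0.891 points), with windows of 2 kb (0.102), inside the edges alone (2.7) and without H3K4me3 replicate 2 (0.398), and ranged from -0.596 to -0.235 without 1 H3K4me1 library and from -0.144 to 0.398 without 1 H3K4me3 library. At the gene-body against the upstream edge it ranged from -1.2 to 2.16 points and from 2.73 to 3.82 points in the same order, and reached 5.29 with the edges of H3K4me3 replicate 3. H3K4me1 next to and inside the domains against other regions stayed positive under each alternative run, at 1.98 to 13.9 and 1.61 to 5.08 points (the lowest of each with the H3K4me1 q-value filter), and so did H3K4me1 downstream against upstream within the domains, at 0.247 to 1.07 points. The difference in CpG ratio was -0.0543 with 2 kb windows. The genes of the 5 B cell lists in a domain numbered 44 to 56. The cause of these changes was not tested. The sign-flip tests used differences within each H3K4me1 library. A pair across marks would be an H3K4me1 and an H3K4me3 library with the same replicate number. No paired analysis was possible because no test set H3K4me1 libraries against H3K4me3 libraries. Whether libraries with the same replicate number came from the same cells was not tested. Without 1 H3K4me1 library the smallest exact sign-flip p is 0.5.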
